A study of Glycine max with 6 samples.

Results

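The 100 genes with the highest mean FPKM in soybean nodules were described, of 39712 genes listed in at least 1 of 6 RNA-seq libraries. FPKM divides the fragments of a gene by the length of its model and by all fragments assigned to genes in the library, on a fixed scale. The genes were chosen by their level alone, as the mean over all 6 libraries with an unlisted gene set to 0, after 5 genes had been left out. Those 5 were the leghemoglobin genes Glyma.10G198800, Glyma.10G199000, Glyma.10G199100 and Glyma.20G191200, and Glyma.08G120100. Levels, ranks and shares are therefore given as descriptions, with no test. The difference between treatments was not used in the choice, although a gene can enter the list through a high level in 1 treatment only.

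Nodules came from soybean genotype YC03-3 inoculated with rhizobium strain USDA110 and grown in hydroponics at low phosphate (LP, 25 µM KH2PO4) or high phosphate (HP, 500 µM KH2PO4). The concentrations are those of the methods, and the labels give the same figures as mM. Each of the 3 LP and 3 HP libraries held nodules over 3 mm, pooled from 2 plants and harvested on day 25, so that p-values measure the spread between such pools. The FPKM values rested on 17716117, 18793635 and 18909026 assigned fragments in the LP libraries and 18195734, 17930721 and 18688901 fragments in the HP libraries. In bulk nodules, more cells of a type and more RNA per cell cannot be told apart.

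A mature soybean nodule holds infected cells packed with nitrogen-fixing bacteroids, uninfected cells that take part in ureide synthesis, and a cortex with vascular bundles. Leghemoglobin binds oxygen in the infected cells and is the best known abundant protein of the nodule. Fixation needs much ATP, so that phosphate supply bears on nodule growth and on the export of fixed nitrogen as ureides and amides. A transcriptome of this kind is carried by few genes, and a change in the most abundant of them moves the share left for all others.

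The labelled tissue was checked by the leghemoglobin genes. Their summed share of total FPKM was 12.5%, 12.8% and 13.4% in LP libraries, against 11.8%, 12.7% and 12.1% in HP libraries. None of the 4 passed an adjusted p of 0.05 in limma, with log2 fold changes of LP over HP between -0.01 and 0.14. The cysteine proteinase 15A-like gene Glyma.14G216300, a senescence marker, had 461, 422 and 388 FPKM in LP libraries, against 235, 209 and 221 FPKM in HP libraries. Its log2 fold change was 0.93 ± 0.11 (SE), with an adjusted p of 0.00126 in limma. It is no member of the 100 genes, and its part in the results below was not tested. Markers of uninfected cells and of shoot tissue could not be matched to gene IDs and were not used. No marker of the membrane around the bacteroids was matched to a gene ID either. A gene described as nodulin-26-like, Glyma.15G087300, averaged 0.21 FPKM at LP and 1.43 FPKM at HP, too low to serve as one. Its log2 fold change was -2.40, with an adjusted p of 0.0361 in limma. Beside the leghemoglobins, the rule left out Glyma.08G120100, which averaged 595 FPKM at LP and 870 FPKM at HP. The log2 fold change of Glyma.08G120100 was -0.55, with an adjusted p of 0.0198 in limma. Of 6 genes with nodulin in their description, nodulin-like ones included, 1 was higher and 5 were lower at both thresholds, and none was a member. The 6 were described because the study had listed them for a difference. Since 91 of the 100 genes have no description, it is not shown that the list lacks nodulin genes.

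The 100 genes held 23.5%, 24.3% and 24.6% of total FPKM in LP libraries, against 19.7%, 19.9% and 20.9% in HP libraries. The lowest LP library was above the highest HP library. The means were 24.1% ± 0.556 in LP libraries and 20.2% ± 0.648 in HP libraries (SD, n = 3 each), a gap of 3.94 percentage points. Counted as fragments, with no scaling to gene length, the share was 20.5%, 21.1% and 21.4% in LP libraries, against 16.7%, 16.97% and 17.6% in HP libraries. The gap was thus also present without the length term. Together with the 5 genes left out, the list reached 37.1% ± 0.982 of total FPKM in LP libraries and 32.5% ± 0.784 in HP libraries (SD, n = 3 each).

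The expression was concentrated at the head of the list. The first 10 genes held 12.8%, 13.2% and 13.7% of total FPKM in LP libraries, against 10.3%, 10.4% and 11.7% in HP libraries. Ranks 51 to 100 together held 3.66% ± 0.042 in LP libraries and 3.45% ± 0.0552 in HP libraries (SD, n = 3 each). Among all genes, the leghemoglobins included, 621, 552 and 505 genes made up 50% of total FPKM in LP libraries, against 927, 827 and 794 genes in HP libraries. Fewer genes were needed in every LP library than in any HP library.

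**Figure D1:**
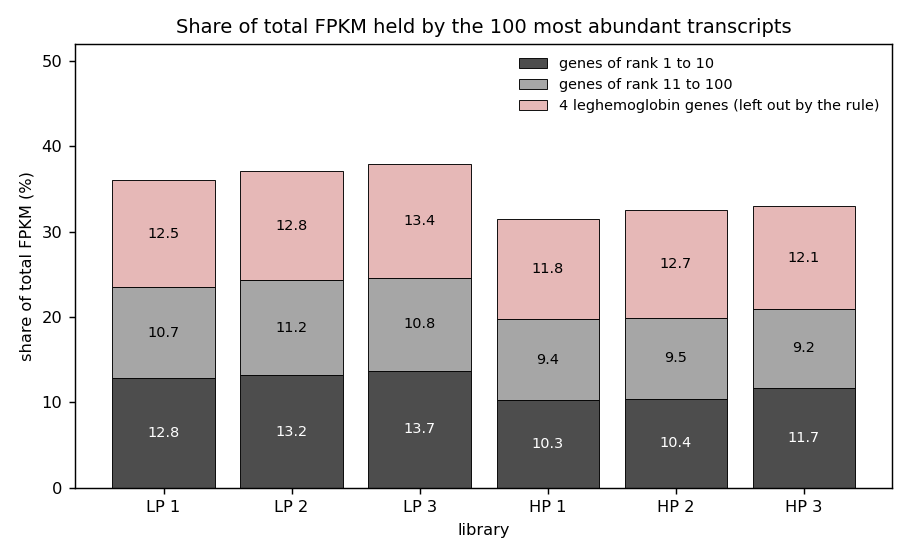
Share of total FPKM (%, vertical axis) in each of the 3 LP and 3 HP libraries (horizontal axis) held by genes of rank 1 to 10, genes of rank 11 to 100 and the 4 leghemoglobin genes left out of the list; each bar is 1 library with its value printed. The grey parts sum to 23.5% to 24.6% in LP libraries and to 19.7% to 20.9% in HP libraries.

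Many genes contributed to the gap in share, and a few of them contributed much. The mean share was larger at LP for 56 genes, which added 5.02 percentage points, and smaller at LP for 44 genes, with a sum of -1.08 percentage points. The first 3 genes together added 1.62 points. Glyma.13G364400 alone added 0.863 points, Glyma.19G098500 added 0.457 points and Glyma.20G024200 added 0.404 points. At the other end, Glyma.15G045000 contributed -0.104 points and Glyma.01G028500 contributed -0.1002 points.

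The most abundant gene of the list was Glyma.13G364400 (Wm82.a2.v1 chromosome 13, 45076184 to 45078228, minus strand). It had 26027, 25088 and 26839.6 FPKM in LP libraries, against 19534, 17704 and 24267 FPKM in HP libraries, and was first in every library. The treatments did not overlap, but HP library 3 lay near the LP values, and the log2 fold change of 0.35 ± 0.14 (SE) had an adjusted p of 0.097 in limma. When HP library 3 was left out it passed, with a log2 fold change of 0.48 and an adjusted p of 0.0333 in limma. Glyma.13G364400 also passed with median-of-ratios rescaling (adjusted p of 0.048) and with array weights (adjusted p of 0.0479). It did not pass in any other of the 17 alternative settings of the fit. By its level, this gene alone held 4.13% ± 0.119 of total FPKM in LP libraries and 3.27% ± 0.611 in HP libraries (SD, n = 3 each).

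The second gene was Glyma.20G024200 (chromosome 20, 2636776 to 2638588), with 13878, 14788 and 16035 FPKM in LP libraries, against 11109.7, 12275 and 13644 FPKM in HP libraries. The third was Glyma.13G328800 (chromosome 13, 42339731 to 42341204), with 9823, 11159 and 11870.3 FPKM in LP libraries, against 7596, 9199 and 9450.0 FPKM in HP libraries. In both genes every LP library was above every HP library, while the adjusted p was 0.138 for Glyma.20G024200 and 0.11 for Glyma.13G328800 in limma.

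Ranks 4 to 6 overlapped between treatments. Glyma.15G045000 averaged 7467 ± 631 FPKM in LP libraries and 8109 ± 358 FPKM in HP libraries (SD, n = 3 each). Glyma.08G131900, whose gene model has no intron, averaged 7596 ± 808 FPKM in LP libraries and 6255 ± 1111 FPKM in HP libraries (SD, n = 3 each). Glyma.14G052400 averaged 3824 ± 392 FPKM in LP libraries and 3371 ± 586 FPKM in HP libraries (SD, n = 3 each). Their adjusted p-values were between 0.212 and 0.459 in limma, so that no difference beyond the spread was found in these 3 genes.

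Ranks 7 to 12 held 4 genes with a higher level at LP by the adjusted p and 2 without. Glyma.U032500, on an unplaced scaffold, had 3904, 4437 and 4493 FPKM in LP libraries, against 2605, 2666 and 2392 FPKM in HP libraries. Its log2 fold change was 0.74 ± 0.11 (SE), with an adjusted p of 0.00362 in limma, below the 2-fold threshold. Glyma.13G347700, the longest gene model of the list with 3388 bases, had 2845, 2404 and 2539.7 FPKM in LP libraries, against 1643, 1382 and 1471 FPKM in HP libraries. Its log2 fold change was 0.79 ± 0.12 (SE), with an adjusted p of 0.00369. Glyma.08G250300 (2481 ± 250.0 FPKM at LP, 2084 ± 141 FPKM at HP) and Glyma.20G144800 (2096 ± 159 FPKM at LP, 2209 ± 39.6 FPKM at HP; SD, n = 3 each) overlapped between treatments. After quantile normalization, Glyma.20G144800 passed the adjusted p (0.00231) with a log2 fold change of -0.69, against -0.08 as deposited. The other 2 of these ranks, Glyma.12G217400 and Glyma.08G200200, passed both thresholds and are given below.

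**Figure D2:**
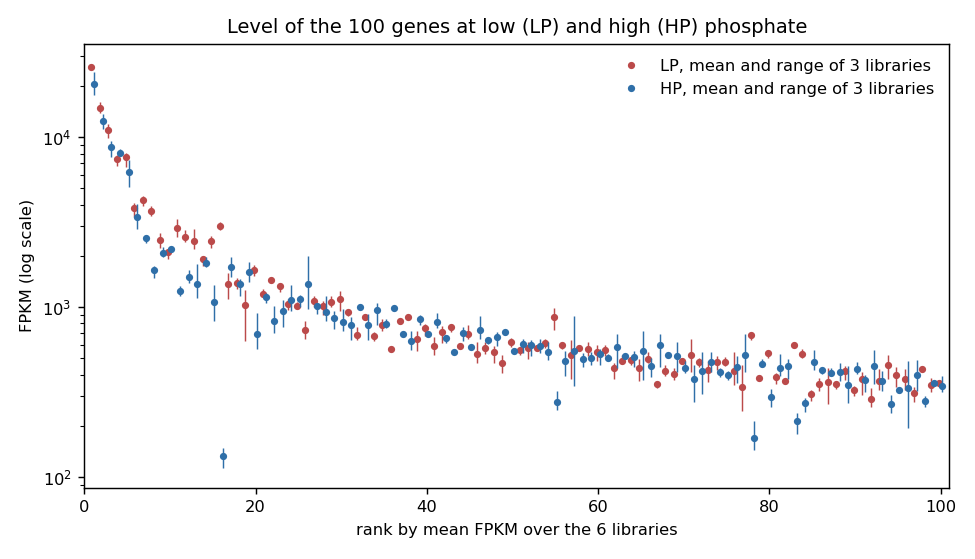
FPKM on a log scale (vertical axis) of the 100 genes in order of their mean over the 6 libraries (horizontal axis); points are the means and lines the ranges of 3 LP and 3 HP libraries. Means run from 25985 FPKM at LP and 20502 FPKM at HP for the first gene to 358 FPKM at LP and 342 FPKM at HP for the last, and Glyma.19G098500 at rank 16 has 3002 FPKM at LP against 133 FPKM at HP.

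The ranks were largely shared between libraries. Of the 100 genes, 88, 89 and 90 were among the first 100 of the 3 LP libraries, and 89, 91 and 85 among the first 100 of the 3 HP libraries. In all 6 libraries at once, 71 genes were among the first 100 and 96 among the first 200. The first 100 by the LP mean and the first 100 by the HP mean shared 81 genes, all members, which is 81% of either list. Over the 100 genes, LP and HP mean levels had a Spearman rho of 0.763, which describes genes that share the same libraries.

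Ranks by the LP mean and by the HP mean rest on the same values as the difference between treatments. Genes that differed thus moved in the ranking by construction. Glyma.19G098500 ranked 9 by the LP mean and 434 by the HP mean. Glyma.01G230200 ranked 41 by the LP mean and 303 by the HP mean. Glyma.20G151500 ranked 47 by the LP mean and 202 by the HP mean, and Glyma.08G200100 ranked 32 by the LP mean and 128 by the HP mean. In the other direction, Glyma.15G115000 ranked 107 by the LP mean and 48 by the HP mean.

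The list ends in a dense part of the ranking. Just inside, Glyma.15G177800 averaged 429 FPKM at LP and 281 FPKM at HP, Glyma.03G244800 averaged 349 FPKM at LP and 358 FPKM at HP, and Glyma.05G204400 averaged 358 FPKM at LP and 342 FPKM at HP. Just outside, Glyma.09G010500 averaged 175 FPKM at LP and 514 FPKM at HP, Glyma.18G061100, an asparagine synthetase that makes the amide asparagine, averaged 437 FPKM at LP and 237 FPKM at HP, and Glyma.11G117600 averaged 304 FPKM at LP and 359 FPKM at HP. Leaving out any single library and choosing again kept 98 or 99 of the 100 genes. Ranking by fragments in place of FPKM kept 74.

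All 100 genes entered the limma fit, which covered 31181 genes that reached 0.5 FPKM in 3 libraries. Where both an adjusted p of 0.05 and a 2-fold difference were asked for, 8 of the 100 were called in either direction, beside 7.73% of all genes tested. All 8 were higher at LP, beside 3.34% of all genes tested. None was lower at both thresholds in limma, beside 4.39% of all genes tested. Among the 8, Glyma.19G098500, Glyma.01G230200, Glyma.20G151500 and Glyma.08G200100 ranked 434, 303, 202 and 128 by the HP mean. These were in the list only through their LP level, so the count of higher genes is partly a result of the choice. Of the first 100 by the HP mean, 4 were higher and 1 was lower. At an unadjusted p under 0.05 in limma, 17 of the 100 genes were lower at LP, none of them 2-fold. Over all 31181 genes tested, 9176 were lower by this measure, 1489 of them 2-fold. With the adjusted p alone, 19 genes were higher, beside 6.77% of all genes, and 10 were lower, beside 18.9% of all genes. The other 71 did not pass.

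The split between directions depends on the scaling of the libraries. The median log2 fold change over all genes tested was -0.18, and that of the 100 genes was 0.09, with quartiles of -0.23 and 0.30. With median-of-ratios rescaling the median of all genes was -0.000381 and that of the 100 genes 0.28. Of the 100, 12 were higher and 0 lower at both thresholds, beside 1404 higher and 676 lower of all 31181 genes tested. With quantile normalization the medians were -0.05 over all genes and -0.04 over the 100 genes. Of the 100, 5 were then higher and 1 lower, beside 1298 higher and 806 lower of all 31181 genes tested. Among all genes called, 43.2% were higher at LP as deposited, 67.5% after median-of-ratios rescaling and 61.7% after quantile normalization.

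The ranges of the treatments were also compared. All 3 LP libraries lay above all 3 HP libraries in 31 of the 100 genes, beside 11.1% of all genes tested. All 3 LP libraries lay below all 3 HP libraries in 19 genes, beside 33.4% of all genes tested. The other 50 overlapped. Among the next 100 genes of the ranking, 6 were higher and 1 was lower at both thresholds, and for rank 501 to 1000, 33 of 500 were higher and 48 were lower.

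**Figure D3:**
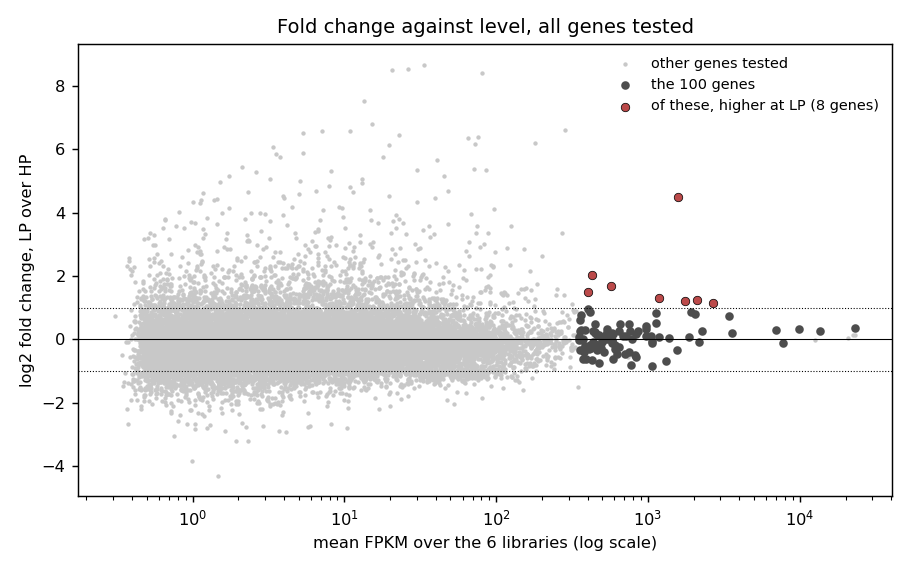
Log2 fold change of LP over HP (vertical axis) against the mean FPKM over the 6 libraries on a log scale (horizontal axis) for all 31181 genes tested; grey points are other genes, black points the 100 genes and red points the 8 of them that were higher at LP. Dotted lines mark 2-fold, and no black point lies below the lower line.

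The largest difference of the list was in Glyma.19G098500 (chromosome 19, 34393327 to 34396049, minus strand). It had 3181, 2984 and 2842 FPKM in LP libraries, against 138, 149 and 114 FPKM in HP libraries. The LP level stood at rank 9 of the list's ranking, and the highest HP library was far below the lowest LP library. The mean was 22.5 times as high at LP, with a log2 fold change of 4.50 ± 0.13 (SE) and an adjusted p of 1.14e-06 in limma. No description of this gene was at hand, and no role is given. Over all 17 alternatives its log2 fold change lay between 4.202 and 4.69.

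Glyma.01G230200 (chromosome 1, 55772244 to 55776690), described as an uncharacterized protein, had 705, 643 and 704 FPKM in LP libraries, against 153, 214 and 144 FPKM in HP libraries. The groups were far apart, with a mean 4.01 times as high at LP, a log2 fold change of 2.03 ± 0.16 (SE) and an adjusted p of 0.000206 in limma. Its value in HP library 3 rested on 2701 fragments, the fewest behind any value of the 100 genes, which gives an exact Poisson 95% interval of 138 to 149 FPKM, for counting error only. All other values of the list rested on more fragments, up to 787656.

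Vegetative storage proteins are glycoproteins that soybean accumulates in stems, leaves and pods as a temporary store of amino acids, and they resemble plant acid phosphatases in sequence. Of this family, 2 neighbouring genes, 2544 bases apart on chromosome 8 and on the same strand, were among the 100. Glyma.08G200100 (16183201 to 16185271), a stem 31 kDa glycoprotein precursor whose RefSeq entry carries the synonym VSPB, had 986, 732 and 903 FPKM in LP libraries, against 319, 255 and 248 FPKM in HP libraries. Its log2 fold change was 1.67 ± 0.15 (SE), with an adjusted p of 0.000401 in limma.

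Glyma.08G200200 (16187816 to 16191151), a stem 28 kDa glycoprotein, stood at rank 11. It had 2567, 3293 and 2934 FPKM in LP libraries, against 1166, 1335 and 1239 FPKM in HP libraries. Both genes rose at LP with no overlap, and the log2 fold change of Glyma.08G200200 was 1.23 ± 0.13 (SE), with an adjusted p of 0.000668 in limma. In quantile normalization it was 0.74, under the 2-fold threshold. Another gene of the family, Glyma.07G014500 (VSP25) at rank 154, averaged 377 ± 150.0 FPKM in LP libraries and 128 ± 51.1 FPKM in HP libraries (SD, n = 3 each), with an adjusted p of 0.0224. Thus 3 of 3 described genes of the family were higher, but descriptions came from a list that the study had drawn up for differences in these samples, so the direction is no independent evidence. How reads of similar gene copies were divided is not given in the sources used here, so the levels of such neighbours are uncertain.

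Glyma.20G151500 (chromosome 20, 39043661 to 39047942), with no description at hand, had 584, 584 and 625 FPKM in LP libraries, against 237, 224 and 179 FPKM in HP libraries. The groups did not overlap, and the log2 fold change was 1.496 ± 0.13 (SE), with an adjusted p of 0.000319 in limma. Glyma.04G079200 (chromosome 4, 6629093 to 6630377), described only as unknown, had 1526, 1677 and 1779 FPKM in LP libraries, against 565, 921 and 596 FPKM in HP libraries. HP library 2 was the nearest to the LP values, and the log2 fold change was 1.29 ± 0.19 (SE), with an adjusted p of 0.00326.

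Glyma.10G214500 (chromosome 10, 44656910 to 44657834), an intronless gene described as a hypothetical protein, had 2514, 2223 and 2619 FPKM in LP libraries, against 1340.5, 1045 and 832 FPKM in HP libraries. Every LP library was above every HP library, with a log2 fold change of 1.22 ± 0.18 (SE) and an adjusted p of 0.0031 in limma. After quantile normalization it was 0.81, under the 2-fold threshold.

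A second pair of neighbours lay on chromosome 12, 3764 bases apart on the plus strand. Glyma.12G217400 (37700474 to 37703715), described as unknown, had 3692, 3909 and 3454 FPKM in LP libraries, against 1752, 1723 and 1480.5 FPKM in HP libraries. Its log2 fold change was 1.16 ± 0.12 (SE), with an adjusted p of 0.000578 in limma, and 0.51 after quantile normalization. Glyma.12G217300 (37694663 to 37696709) had 2864, 2273 and 2201 FPKM in LP libraries, against 1791, 1126 and 1189 FPKM in HP libraries. It passed the adjusted p (0.018) with a log2 fold change of 0.86 ± 0.20 (SE), and 2-fold as well when HP library 1 was left out (log2 fold change 1.07). Both genes were higher at LP in every library.

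**Figure D4:**
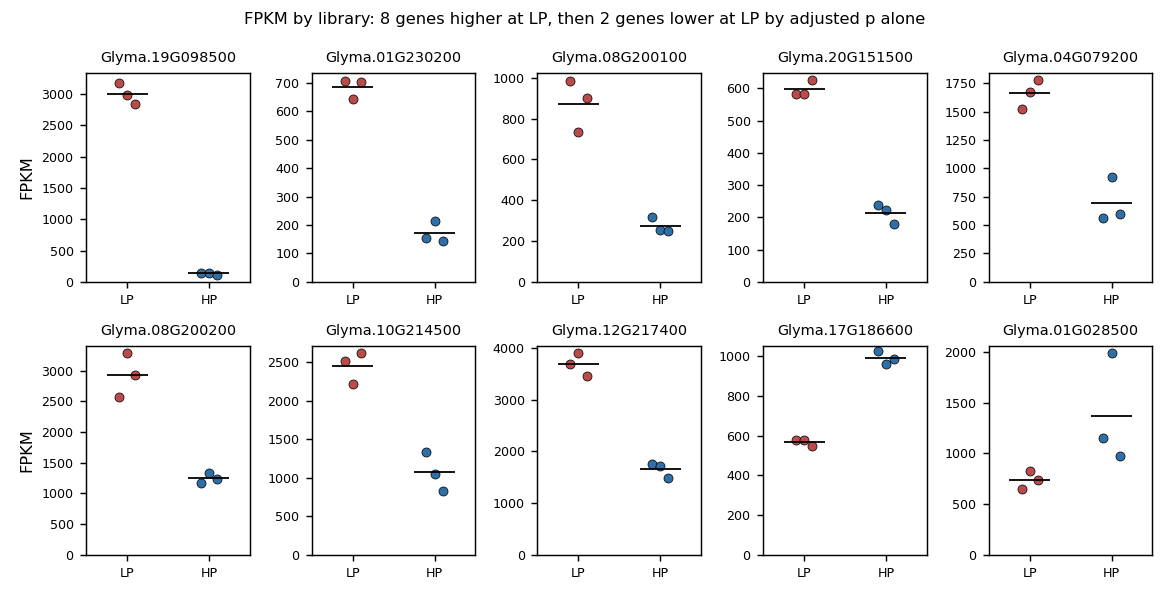
FPKM (vertical axes from 0, with a scale of their own in each panel) of the 8 genes higher at LP at both thresholds, followed by Glyma.17G186600 and Glyma.01G028500, which were lower at LP by the adjusted p alone; points are the 3 LP and 3 HP libraries and bars their means. In all 10 panels the LP and HP points do not overlap, and HP library 2 of Glyma.01G028500 stands at 1991 FPKM.

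Of the 8 genes, 5 passed both thresholds in all 17 alternatives of the fit, and the other 3, Glyma.08G200200, Glyma.10G214500 and Glyma.12G217400, lost the 2-fold threshold under quantile normalization only. Together the 8 held 2.53% ± 0.0343 of total FPKM in LP libraries and 0.868% ± 0.073 in HP libraries (SD, n = 3 each). Their gain of 1.66 percentage points compares with 1.62 points of the first 3 genes. The number depends on the level that chose the genes. Of the first 100 by the HP mean, 4 were higher and 1 was lower, and of the first 100 by the LP mean, 13 were higher and 0 were lower.

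Another 11 genes passed the adjusted p with a higher level at LP and a difference under 2-fold. Beyond those already given, 2 carry a description that names a function. Glyma.16G043300, a nucleoside-triphosphatase-like gene of a family that cleaves nucleotides with release of phosphate, had 504, 568 and 509 FPKM in LP libraries, against 242, 293 and 286 FPKM in HP libraries (log2 fold change 0.95 ± 0.12 (SE), adjusted p of 0.00157 in limma). Glyma.10G242600, an ATP sulfurylase that activates sulfate for assimilation, had 554, 503 and 546 FPKM in LP libraries, against 303, 331 and 257 FPKM in HP libraries (log2 fold change 0.85 ± 0.13 (SE), adjusted p of 0.0031). In both, the lowest LP library was above the highest HP library. These 2 were picked for their descriptions after their values had been seen.

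ATP sulfurylase was the only member of the list among 11 described genes of carbon, nitrogen and sulfur assimilation, of which 10 were tested, 8 were higher, 0 were lower and 2 were not called at both thresholds. Glyma.11G170300, an asparagine synthetase at rank 128, was the most abundant of the 8, with 405 ± 11.7 FPKM in LP libraries and 155 ± 26.6 FPKM in HP libraries (SD, n = 3 each; log2 fold change 1.40, adjusted p of 0.0005). These descriptions too come from the list the study had drawn up for differences in these samples. Members of this class without a description could not be counted.

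The 10 genes that passed the adjusted p with a lower level at LP held 0.794% ± 0.0624 of total FPKM in LP libraries and 1.24% ± 0.0244 in HP libraries (SD, n = 3 each). The smallest adjusted p among them was that of Glyma.17G186600, TefS1, a translation elongation factor gene that the study used as the reference in qRT-PCR. TefS1 (chromosome 17, 23719358 to 23722187) had 577, 576 and 546 FPKM in LP libraries, against 1025, 958 and 983 FPKM in HP libraries. The groups were well apart, and the SD within treatments of 0.047 on the log2 scale was the smallest of all 100 genes. The HP mean was 1.75 times the LP mean, with a log2 fold change of -0.80 ± 0.10 (SE) and an adjusted p of 0.00146 in limma.

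TefS1 stayed lower in all 17 alternatives, with log2 fold changes between -0.87 and -0.62 and adjusted p-values up to 0.0109. It did not reach the 2-fold threshold in any of them. Elongation factors of this kind carry aminoacyl-tRNA to the ribosome. No ribosomal protein gene with a description was among the 100, and the 30 described genes of ribosomal proteins that were tested were all lower at LP at both thresholds. The 30 were described because the study had listed them for a difference, which leaves their direction no independent evidence. Since 91 of the 100 genes have no description, it is also not shown that the list lacks ribosomal protein genes.

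Glyma.01G028500 had 646, 828 and 734 FPKM in LP libraries, against 1155, 1991 and 977 FPKM in HP libraries. HP library 2 stood far above the other 2 of its treatment, and the log2 fold change of -0.84 ± 0.26 (SE) had an adjusted p of 0.0483 in limma. It did not pass the adjusted p in 7 of the 17 alternatives. Glyma.15G115000 had 355, 362 and 333 FPKM in LP libraries, against 655, 446 and 690.4 FPKM in HP libraries (log2 fold change -0.74 ± 0.17 (SE), adjusted p of 0.0178). The other 7 genes lower at LP had log2 fold changes between -0.63 and -0.41.

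**Figure D5:**
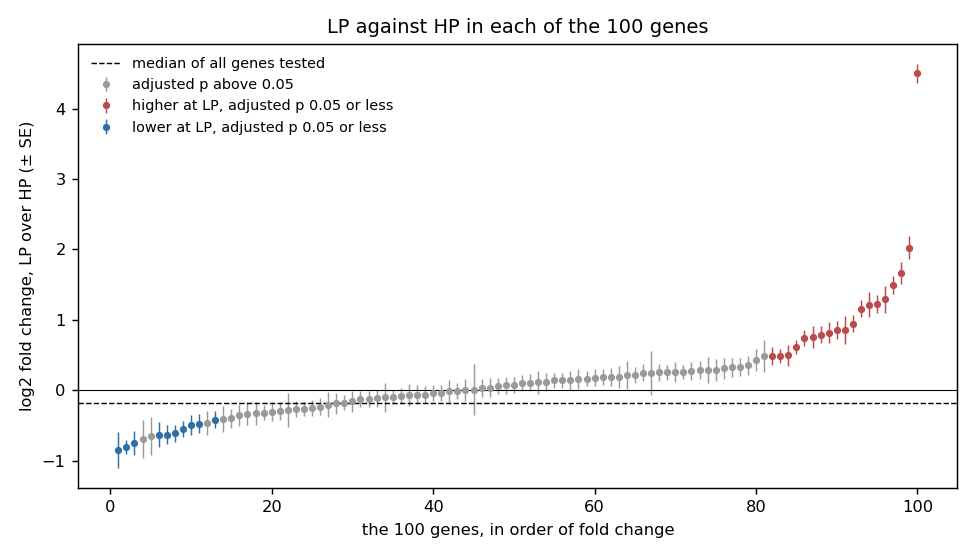
Log2 fold change of LP over HP with its SE (vertical axis) for the 100 genes in order of that value (horizontal axis); red points are the 19 genes higher and blue points the 10 genes lower by the adjusted p alone, and the dashed line is the median of all genes tested at -0.18. The highest point is Glyma.19G098500 at 4.50 and the lowest is Glyma.01G028500 at -0.84.

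Genes of like level differed in how closely replicates agreed. The median SD within treatments was 0.154 on the log2 scale over the 100 genes and 0.202 over all genes tested. Beside TefS1, the tightest were Glyma.12G135000 (832 ± 31 FPKM at LP, 693 ± 21.4 FPKM at HP), Glyma.12G095700 (384 ± 6.99 FPKM at LP, 463 ± 27.1 FPKM at HP), Glyma.08G108000 (767 ± 45.2 FPKM at LP, 546 ± 7.15 FPKM at HP) and Glyma.U021900 (482 ± 33.7 FPKM at LP, 513 ± 13.0 FPKM at HP; SD, n = 3 each). Of these 4, Glyma.08G108000 passed the adjusted p (0.0128) with a log2 fold change of 0.49.

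The widest spread was in Glyma.10G017600, with 379, 546 and 641 FPKM in LP libraries, against 426, 888 and 342 FPKM in HP libraries. Its SD within treatments was 0.579 on the log2 scale. Glyma.07G125500 had 323, 369 and 435 FPKM in LP libraries, against 328, 483 and 194 FPKM in HP libraries. In both genes, and in Glyma.01G028500 and Glyma.17G016300 (245, 311 and 453 FPKM in LP libraries, against 464, 689 and 414 FPKM in HP libraries), HP library 2 was the highest of its treatment. Glyma.10G060100 stood apart by LP library 1 instead, with 633, 1263 and 1201 FPKM in LP libraries, against 1572, 1395 and 1849 FPKM in HP libraries (log2 fold change -0.69 ± 0.27 (SE), adjusted p of 0.0958 in limma). After quantile normalization it was the 1 gene lower at both thresholds, with a log2 fold change of -1.06 and an adjusted p of 0.0139 in limma.

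Over the 100 genes, LP library 1 had a median deviation from its treatment mean of -0.10 on the log2 scale, while its median over all genes tested was 0.05. It was the farthest of the 3 LP libraries in 58 of the 100 genes. HP library 2 had a median deviation of 0.08 over the 100 genes and was the farthest of its treatment in 40. HP library 3 was the farthest in nearly as many, 38, and HP library 1 in 22. Without LP library 1 and with the genes chosen again, the LP share of total FPKM was 24.4%.

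The 5 smallest fitted log2 fold changes, between -0.01 and 0.03, were those of Glyma.17G195900 (788 ± 66.5 FPKM at LP, 789 ± 53.8 FPKM at HP), Glyma.15G105100 (375 ± 61.1 FPKM at LP, 372 ± 47.0 FPKM at HP), Glyma.06G298600 (367 ± 54.5 FPKM at LP, 369 ± 49.8 FPKM at HP), Glyma.10G017600 (522 ± 133 FPKM at LP, 552 ± 294 FPKM at HP) and Glyma.01G078300 (1387 ± 106 FPKM at LP, 1361 ± 169.9 FPKM at HP; SD, n = 3 each). Their adjusted p-values were between 0.872 and 0.987 in limma. A p of this size does not show that the levels are the same.

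Gene models of the list were shorter than those of other genes. Their median length, recovered from the FPKM values as the smallest that gives whole fragments in all 6 libraries, was 1358.5 bases, against 1778 bases over all 39712 genes. Of the 100, 32 were under 1000 bases, which is 32%, against 15.7% of all genes. FPKM divides by length, so that length enters the measure that chose the genes. A model as long as its span, that is without an intron, was found in 14% of the list and 13.6% of all genes.

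By position, chromosome 8 held 12 of the 100 genes and chromosome 13 held 9. These chromosomes also had the most listed genes, 2754 on chromosome 8 and 2726 on chromosome 13, so that 0.436% of the genes of chromosome 8 and 0.33% of those of chromosome 13 were in the list. Of the 100, 2 were on unplaced scaffolds. Another member or a left-out gene lay within 50 kb of 13 of the 100, that is of 13%, against 1.87% of all listed genes. Neighbours differed in their values elsewhere. On chromosome 8, Glyma.08G076300, Glyma.08G076500 and Glyma.08G076800 had log2 fold changes of 0.22, -0.47 and 0.14 with 8649 and 10951 bases between them, and only Glyma.08G076500 passed the adjusted p (0.0372). On chromosome 5, Glyma.05G121600 passed the adjusted p (0.0427) with a log2 fold change of 0.50, and its neighbour Glyma.05G121700 had -0.06.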

How the data were processed

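Nodule RNA was measured in 3 LP and 3 HP libraries. The authors aligned reads with HISAT2 2.1.0 on a Bowtie2 2.2.3 index of the Williams 82 assembly (Wm82.a2.v1), estimated abundance with Cufflinks, tested with DESeq2 1.6.3, and deposited FPKM values for each library. Only values above 0 are listed, so missing genes were set to 0. Whole fragments and library totals were recovered from the FPKM values (relative tolerance 1e-10, 99.7% of totals) and used for depth and intervals. log2(FPKM + 0.1) was tested two-sided with limma 3.58.1 in R 4.3.3 (trended, robust eBayes; statmod 1.5.0) for genes with at least 0.5 FPKM in 3 libraries, with Benjamini-Hochberg adjustment over all of them; a gene was called at an adjusted p of 0.05 and an absolute log2 fold change of 1. The code was tested on simulated data. Summaries used matplotlib 3.10.9, scipy 1.17.1, pandas 2.3.3 and numpy 2.4.6 in Python 3.11.15.

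Genes, lists and tests were chosen with earlier results of these data known. Named genes were the 12 highest, all called, the 5 with the smallest and the 5 with the largest SD within treatments, the 5 smallest changes, ranks 98 to 103, up to 3 of each functional class and genes the study names; others were added after their values were seen. Descriptions came from the study's supplement and from its text, which names TefS1. The supplement was at hand only up to a point on chromosome 18 and covers 8 of the 100 genes, and 91 genes have no description. Genes beyond that point, such as Glyma.19G098500 and Glyma.20G151500, could have none, and the class counts leave such genes out. Alternatives covered the added constant, the filter, scaling, variance model, replicate block, single libraries left out and the choice of the 100 genes.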

Additional observations from a re-analysis of the deposited data

How the results depend on the processing

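Over all genes tested, 1041 were higher and 1370 lower at both thresholds; the lower ones numbered 602 with an added constant of 1, 676 with median-of-ratios rescaling and 806 with quantile normalization, and with the adjusted p alone 2110 were higher and 5894 lower. Of the 100 genes, 8 higher and 0 lower became 5 and 1 (Glyma.10G060100, log2 fold change -1.06) with quantile normalization and 19 and 10 with the adjusted p alone. With the list chosen otherwise, the higher ones numbered 4 by the HP mean, 13 by the LP mean, 5 of the first 50 genes and 14 of the first 200, with 1 lower by the HP mean and 1 of the first 200. The 10 lower by the adjusted p alone numbered 1 with median-of-ratios rescaling, 19 with quantile normalization and 5 without trend and robust in eBayes. The share of total FPKM was 23.3% at LP by the HP mean, 20.5% at LP and 16.8% at HP for 50 genes, 28.4% at LP and 24.3% at HP for 200 genes, 21.9% at LP and 17.7% at HP by fragments, 36.9% at LP and 32.2% at HP with the 5 genes kept in, and 27.8% at LP and 23.0% at HP of the total without them. The cause of these changes was not tested beyond the way each setting is built.

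With each library left out in turn, 726 to 1146 of all genes were higher and 1001 to 1442 lower; of the 100 genes, 8 to 9 were higher and 0 to 1 lower at both thresholds, and 16 to 20 higher and 4 to 8 lower by the adjusted p alone, from fewer samples. The 1 lower gene was Glyma.01G028500 without HP library 3 (log2 fold change -1.05). Lower genes by the adjusted p alone numbered 4 without LP library 1, 4 without LP library 2, 5 without LP library 3 and 5 without HP library 1. The LP share was 23.9% to 24.4%, the HP share 19.8% to 20.4%, and 98 to 99 genes were kept. LP and HP libraries share replicate numbers, and the labels do not say whether these numbers pair them. Deviations of same-numbered libraries correlated at 0.17, -0.02 and -0.15, which are too few values to show or exclude a pairing. With the replicate number as a block, 1046 genes were higher and 1288 lower, and of the 100 genes 8 were higher and 0 lower at both thresholds and 20 higher and 9 lower by the adjusted p alone.

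For the 29 genes past the adjusted p, none of 493 values under 17 alternatives changed direction, and 66 missed the adjusted p; 14 genes passed it throughout. Of 21 other named genes, 9 of 357 values passed the adjusted p, among them -0.69 in Glyma.20G144800 with quantile normalization, and 32 changed direction, all 32 with an adjusted p above 0.05. With median-of-ratios rescaling the log2 fold change was 0.065 in Glyma.15G045000, 0.11 in Glyma.20G144800, 0.094 in Glyma.U021900, 0.18 in Glyma.17G195900, 0.18 in Glyma.06G298600 and 0.15 in Glyma.03G244800. With quantile normalization it was -0.31 in Glyma.14G052400, -0.31 in Glyma.08G250300, -0.076 in Glyma.15G105100, -0.31 in Glyma.01G078300 and -0.012 in Glyma.05G204400. With array weights it was 0.053 in Glyma.17G195900, -0.014 in Glyma.01G078300 and 0.028 in Glyma.03G244800, and with equal totals over genes other than the 5 left out 0.0080 in Glyma.17G195900 and 0.00348 in Glyma.06G298600. Without single libraries it was -0.094 to 0.56 in Glyma.07G125500, -0.27 to 0.42 in Glyma.10G017600, -0.061 to 0.061 in Glyma.17G195900, -0.10 to 0.15 in Glyma.15G105100, -0.12 to 0.089 in Glyma.06G298600, -0.075 to 0.094 in Glyma.01G078300 and -0.11 to 0.030 in Glyma.03G244800.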
